A study of Mus musculus with 69 samples.

Results

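The 10 genes described here encode receptors and bridging ligands with which phagocytes take up dying cells, myelin debris and modified lipoproteins. They were chosen by symbol: the TAM receptors Axl and Mertk, the TAM ligands Gas6 and Pros1, and the scavenger and endocytic receptors Cd36, Msr1, Scarb1, Cd93, Mrc1 and Lrp1. Each symbol named 1 row of the primary microglia table, which held 54532 genes, and all 10 were among the 14468 genes that passed the filter on low counts. In the 2 hippocampal tables, Msr1 fell below that filter and 9 of the 10 were tested.

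The main experiment held 24 libraries of primary mouse microglia from pups of postnatal days 1 to 3. Male and female cultures of WT or Tlr7 knockout (KO) genotype received DMSO or myelin, with 3 libraries in each of the 8 groups. Of the 45 hippocampal libraries, 28 came from WT mice that received either saline or the TLR7 agonist gardiquimod, with 7 in each group; the males were 12.12 and the females 9.60 months old. The other 17 came from mice of the genotype PSUK+ given a control or a TLR7 inhibitor (male control 3, male inhibitor 6, female control 3, female inhibitor 5), aged 5.50 to 6.85 months, and all groups of that table shared the genotype. The labels do not spell out PSUK, name the inhibitor, give the dose or duration of any treatment, or say whether libraries of 1 group came from separate cultures, so p-values in the microglia measure the spread between libraries, which may be technical. RNA is labelled nuclear and isolated from microglia for all 69 libraries.

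Axl and Mertk are receptor tyrosine kinases of the TAM family. They do not bind a dying cell directly: Gas6 and protein S, the product of Pros1, attach to phosphatidylserine on its surface and to the receptor on the phagocyte. Mertk is known for the quiet clearance of apoptotic cells, whereas Axl is known as a receptor that rises in inflamed tissue and with interferon. Scavenger receptors such as CD36 and the class A receptor encoded by Msr1 bind oxidised lipids and other polyanionic ligands, and LRP1 carries lipoproteins and myelin components into the cell.

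Total counts ranged from 15.3 M to 21.3 M over the microglia libraries, from 14.3 M to 23.5 M in the agonist experiment and from 14.4 M to 21.0 M in the inhibitor experiment. Tlr7 stood at 167 to 197 CPM (counts scaled to the size of the library) in the 12 WT microglia libraries and at 1.25 to 2.76 CPM in the 12 KO libraries. Xist, which marks female cells, was at 259 CPM or more in every female library and at 1.96 CPM or less in the male libraries except male inhibitor replicates 1 and 2, at 11.1 and 3.27 CPM, and the inhibitor results are given with and without these. The 10 microglia markers summed to 4799 to 6048 CPM in the cultures, against 41 to 62 CPM for 8 endothelial and 3 to 6 CPM for 8 neuronal markers. Other lists reached higher sums there, up to 890 CPM for oligodendrocytes, 165 CPM for their precursors and 544 CPM for choroid plexus. Border-associated macrophage markers reached 1081 CPM, and blood monocyte and neutrophil markers 2962 CPM. In the hippocampal libraries, 8 astrocyte markers summed to 2869 to 13241 CPM and the 10 microglia markers to 260 to 607 CPM, so these are values of mixed tissue whatever the extraction label says; fewer cells of a type and less RNA per cell cannot be told apart in them. Library preparation counted 3′ ends, so a count does not scale with transcript length and levels of different genes are compared below as CPM.

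RefSeq promoter windows, the 250 bases before the annotated start, were at hand for 7 of the 10 genes, all but Msr1, Scarb1 and Cd93. The 4 windows printed here belong to the genes with a window whose levels moved most with myelin or with the Tlr7 genotype. Coordinates are GRCm38.p6, sequences run 5′ to 3′ on the gene's strand, and capitals mark matches on either strand to the motifs named below.
Axl, chr7:25788734-25788983, minus strand: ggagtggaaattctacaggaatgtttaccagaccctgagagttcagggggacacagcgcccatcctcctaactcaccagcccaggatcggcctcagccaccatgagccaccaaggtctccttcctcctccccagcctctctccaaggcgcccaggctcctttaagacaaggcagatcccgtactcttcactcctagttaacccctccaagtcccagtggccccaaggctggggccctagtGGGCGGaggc
Gas6, chr8:13494536-13494785, minus strand: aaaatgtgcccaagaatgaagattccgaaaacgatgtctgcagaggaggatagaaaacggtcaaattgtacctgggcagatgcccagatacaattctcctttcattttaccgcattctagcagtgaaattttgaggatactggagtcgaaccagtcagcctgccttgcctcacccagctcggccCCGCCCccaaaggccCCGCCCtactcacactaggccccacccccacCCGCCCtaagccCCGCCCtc
Pros1, chr16:62854057-62854306, plus strand: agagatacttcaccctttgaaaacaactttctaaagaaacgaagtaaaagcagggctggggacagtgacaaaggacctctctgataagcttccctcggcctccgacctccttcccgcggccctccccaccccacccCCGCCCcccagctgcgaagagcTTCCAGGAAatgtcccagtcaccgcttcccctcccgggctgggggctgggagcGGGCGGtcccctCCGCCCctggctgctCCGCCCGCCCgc
Cd36, chr5:17835897-17836146, minus strand: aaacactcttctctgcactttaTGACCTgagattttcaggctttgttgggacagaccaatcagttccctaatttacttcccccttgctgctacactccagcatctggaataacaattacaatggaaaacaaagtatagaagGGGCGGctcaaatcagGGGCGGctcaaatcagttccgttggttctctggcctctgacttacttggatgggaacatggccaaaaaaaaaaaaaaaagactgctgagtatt

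The GC box GGGCGG was present in 7 of the 7 windows, and in 32.7% of the 32851 mouse windows of the same length; it came 4 times before Gas6 and 1 time before Axl, 10 to 5 bases from the start. The half-site AGGTCA, which nuclear receptors bind, was found before Cd36 alone among the 7, 228 to 223 bases from the start, and in 14% of all windows. The STAT motif TTCNNNGAA was found before Pros1, 92 to 84 bases from the start, and before Lrp1, against 7.02% of all windows. The interferon-stimulated response element was in none of the 7 windows and in 2.98% of all. The Cd36 window lies inside the span of the gene in the deposited table, which has more than 1 start.

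In DMSO, the most abundant of the 10 transcripts were Lrp1, Msr1 and Cd36. In male WT cultures their means were 1834, 1585 and 1363 CPM, with no overlap between the 3 genes' libraries. Mrc1, the mannose receptor, followed at 440 CPM and Gas6 at 417 CPM, then Axl at 277, Mertk at 160, Cd93 at 131, Scarb1 at 91.3 and Pros1 at 69.2 CPM (n = 3). Female WT cultures had the same order but for Cd93, at 173 CPM above Mertk at 156 CPM, and their Lrp1 and Msr1 libraries overlapped. Tyro3, the third TAM receptor, was at 2.05 to 6.11 CPM over the 24 libraries and passed no test, whereas in the hippocampal libraries it lay between 72.9 and 135 CPM.

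**Figure D1:**
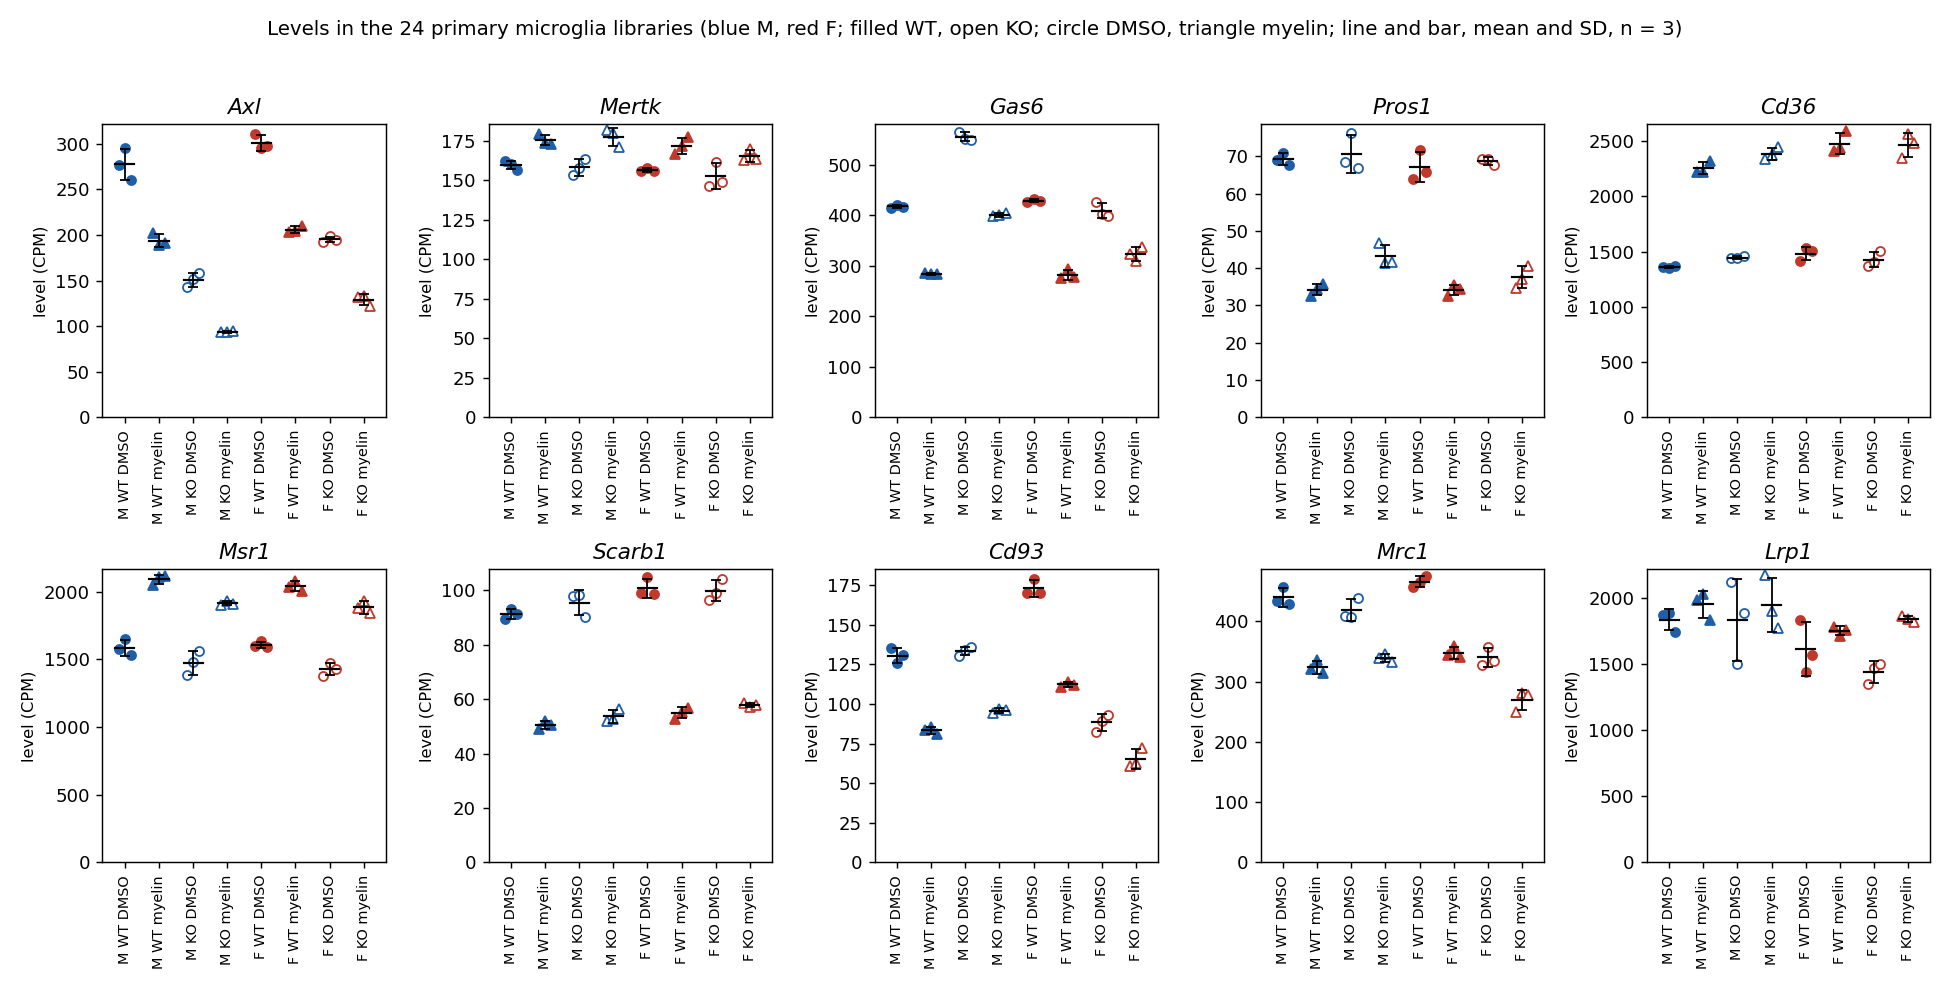
Levels of the 10 genes in every primary microglia library, in CPM on a linear axis from 0, by sex, genotype and treatment, with the mean and SD of 3 libraries. Axl is lower in KO than in WT and lower with myelin than with DMSO in both sexes, Cd36 and Msr1 are higher with myelin in all 4 kinds of culture, and Cd93 is lower in KO only in the female cultures.

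Myelin raised the scavenger receptors Cd36 and Msr1 and, by less, the TAM receptor Mertk. It lowered both TAM ligands, the TAM receptor Axl, and Scarb1, Cd93 and Mrc1. These directions were the same in male and female, WT and KO cultures. In male WT cultures 9 of the 10 genes passed the threshold (edgeR's quasi-likelihood test, Benjamini-Hochberg adjusted p under 0.05), against 39.3% of all tested genes. Of these, 3 rose (20% of all genes did) and 6 fell (19.4%). The counts were 3 and 6 in female WT cultures (40.4% of all genes passed, 19.3% up and 21.1% down), 3 and 6 in male KO (38.2%, 18% and 20.2%) and 4 and 6 in female KO cultures (41.2%, 20.8% and 20.4%). The median log2 change of the 10 genes was -0.48 in WT cultures of either sex, -0.39 in male KO and -0.34 in female KO cultures, where the median over all genes was between -0.01 and 0.01. Every gene that passed also had no overlap between its myelin and DMSO libraries, which held for 49.3% of all genes in male WT, 49.3% in female WT, 46.4% in male KO and 47.6% in female KO cultures.

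Axl, the TAM receptor linked to inflammation, had 277, 295 and 260 CPM in the male WT libraries with DMSO and 202, 189 and 191 with myelin. In female WT cultures it had 310, 295 and 297 CPM with DMSO and 203, 204 and 210 with myelin. Every myelin library was below every DMSO library of its sex and genotype. The log2 fold change was -0.52 (SE 0.04, edgeR adjusted p = 5.8e-17) in male and -0.55 (SE 0.04, edgeR adjusted p = 4.38e-18) in female WT cultures. In KO cultures the decline started from a lower level: males went from 143, 152 and 158 CPM to 93.2, 93.1 and 94.5, a log2 fold change of -0.69, and females from 192, 199 and 195 CPM to 132, 133 and 123, a change of -0.60.

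Mertk, the receptor of steady-state clearance, moved little and the other way. It stood between 146 and 164 CPM in the 12 DMSO libraries and between 163 and 181 CPM in the 12 myelin libraries. Within each kind of culture the myelin libraries were all above the DMSO libraries. Its log2 fold changes, 0.13 in male WT, 0.13 in female WT, 0.17 in male KO and 0.12 in female KO cultures, passed the threshold but were the smallest of the 9. The female KO call was lost with 5 of the 11 alternatives, among them the fit with no low-count filter, and the female WT call was lost without myelin replicate 3.

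The ratio of Axl to Mertk was lower with myelin in every kind of culture, but which receptor was more abundant changed with myelin in female KO cultures alone. Axl stood at 1.74 times Mertk in male WT cultures with DMSO (SD 0.095, n = 3) and at 1.11 times with myelin (SD 0.021). In male KO cultures the ratio was 0.954 (SD 0.017) with DMSO and 0.528 (SD 0.022) with myelin. Females had ratios of 1.92 and 1.199 in WT and of 1.28 and 0.781 in KO cultures. Axl thus exceeded Mertk in 3 of 3 libraries of each WT group and of female KO cultures with DMSO, and in 0 of 3 in the other groups.

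**Figure D2:**
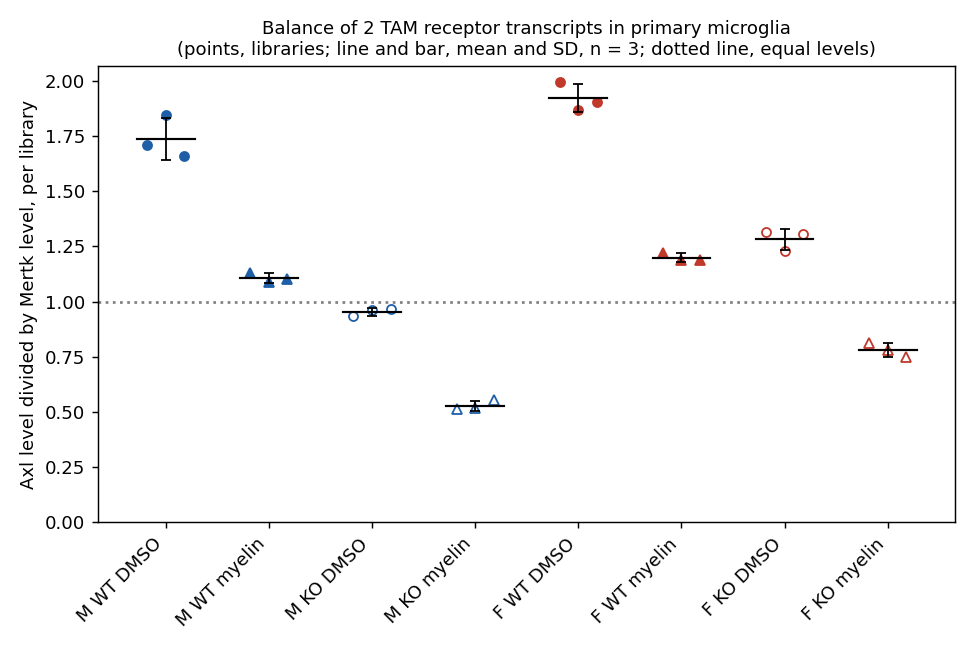
Axl level divided by Mertk level in each primary microglia library, on a linear axis from 0, with the mean and SD of 3 libraries and a dotted line at equal levels. The ratio is highest in WT cultures with DMSO, at 1.74 and 1.92, and lowest in male KO cultures with myelin, at 0.528, where every library lies under the line.

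Both TAM ligands fell with myelin. Pros1, which encodes protein S, had 69.0, 70.9 and 67.8 CPM in male WT libraries with DMSO and 32.6, 34.4 and 35.8 with myelin. In female WT libraries it had 63.8, 71.6 and 65.9 CPM with DMSO and 32.6, 35.4 and 34.4 with myelin. Groups did not overlap, and these were the largest changes among the 10 genes in WT cultures, with log2 fold changes of -1.01 (SE 0.06, edgeR adjusted p = 2.29e-21) and -0.98 (SE 0.06, edgeR adjusted p = 7.22e-21). In KO cultures the changes were -0.71 in males and -0.87 in females.

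Gas6, the ligand that binds all TAM receptors, had 415, 421 and 415 CPM in male WT libraries with DMSO and 286, 284 and 283 with myelin, a log2 fold change of -0.55 (SE 0.03, edgeR adjusted p = 3.98e-22). Female WT libraries had 426, 433 and 428 CPM with DMSO and 276, 293 and 277 with myelin, a change of -0.60. In KO cultures the changes were -0.47 in males, from 565, 551 and 549 to 398, 399 and 404 CPM, and -0.34 in females, from 426, 402 and 398 to 323, 309 and 336 CPM. Myelin and DMSO libraries were apart in each case. The 3′ end of Gas6 is overlapped on the opposite strand by Tmem255b, and whether counting used the strand is not given in the sources used here; Tmem255b had at most 12 counts in any microglia library, where Gas6 had 4393 to 9272.

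Of the 10 genes, Cd36 rose the most. This fatty acid and oxidised lipid receptor had 1360, 1353 and 1375 CPM in male WT libraries with DMSO and 2225, 2223 and 2321 with myelin. Female WT libraries had 1412, 1531 and 1507 CPM with DMSO and 2409, 2437 and 2591 with myelin. The groups were far apart, and the log2 fold changes were 0.73 (SE 0.03, edgeR adjusted p = 5.9e-18) and 0.74 (SE 0.03, edgeR adjusted p = 3.37e-18). They were 0.72 and 0.79 in male and female KO cultures.

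Msr1, the class A scavenger receptor, was at 1379 to 1649 CPM in the 12 DMSO libraries and at 1838 to 2117 CPM in the 12 myelin libraries. Its log2 fold changes were 0.40 and 0.34 in WT and 0.38 and 0.40 in KO cultures, males first. Scarb1, the class B receptor that takes up cholesterol esters from high-density lipoprotein, went the other way from Cd36, a receptor of its own class. It was at 89.3 to 105 CPM in the DMSO libraries and at 49.1 to 58.6 CPM in the myelin libraries. Its changes were -0.85 and -0.88 in WT and -0.83 and -0.79 in KO cultures, so that Cd36 stood at 14.3 to 15.2 times Scarb1 in the 4 DMSO group means and at 42.7 to 45.1 times with myelin.

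Cd93, a C-type lectin-like receptor once described as a receptor for C1q, fell with log2 changes of -0.65 and -0.62 in male and female WT and of -0.48 and -0.44 in male and female KO cultures. Mrc1 fell with changes of -0.44, -0.42, -0.30 and -0.34. Lrp1 was between 1345 and 2117 CPM with DMSO and between 1711 and 2172 CPM with myelin, and its groups overlapped in 3 of the 4 kinds of culture, with changes of 0.09, 0.12 and 0.09 that did not pass. In female KO cultures the DMSO libraries had 1345, 1466 and 1500 CPM and the myelin libraries 1863, 1842 and 1815. The change of 0.36 (SE 0.11, edgeR adjusted p = 0.0115) passed there; the call was lost without DMSO replicate 1 and with Ttr and Pdgfra as covariates (0.41, edgeR adjusted p = 0.215).

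**Figure D3:**
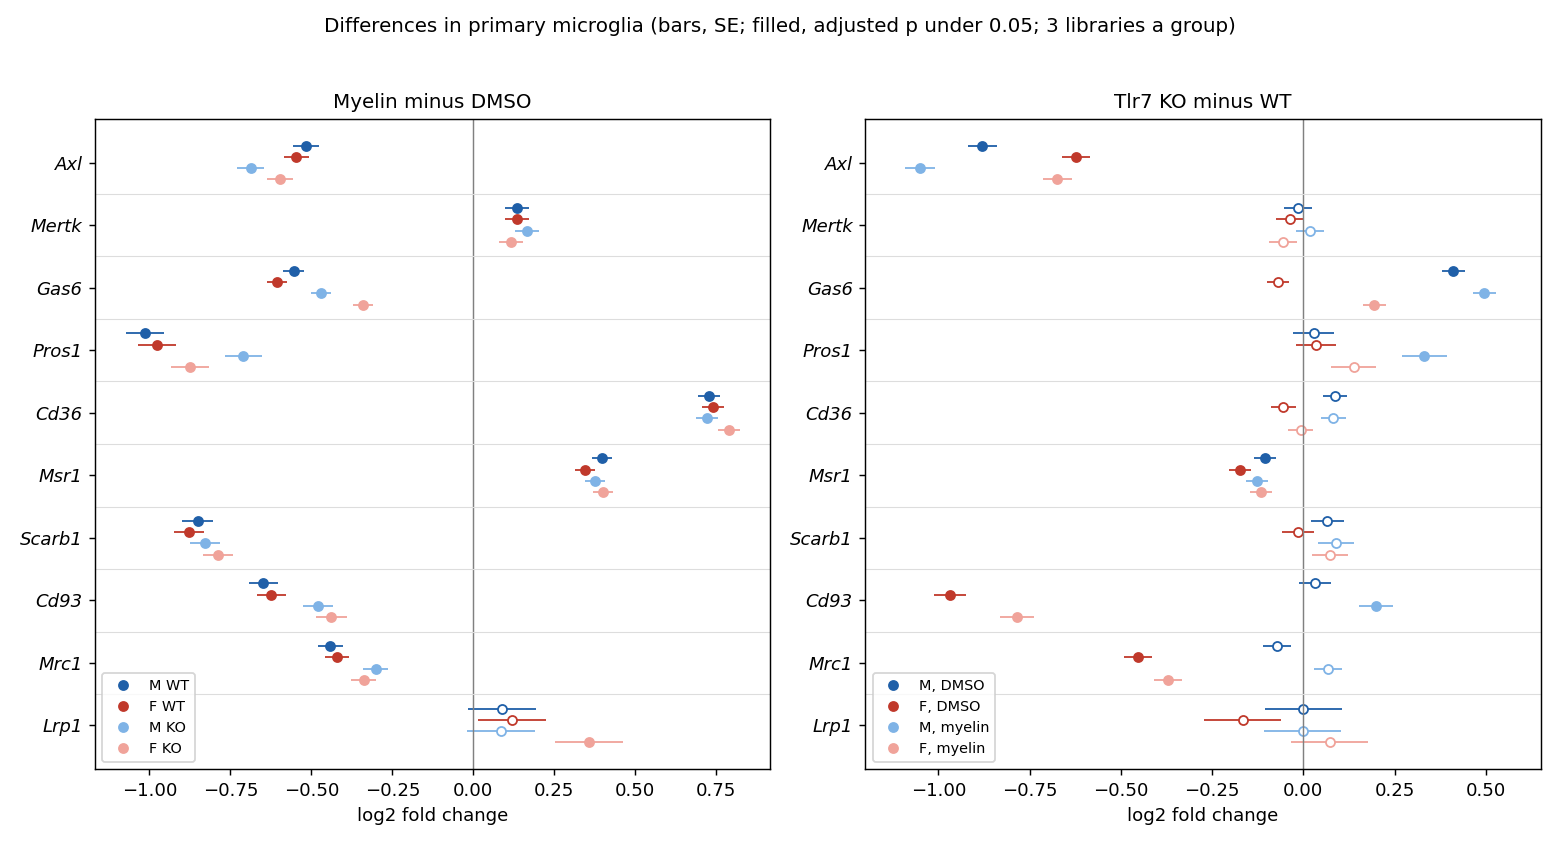
Log2 fold changes with SE of the 10 genes in primary microglia, for myelin minus DMSO on the left and Tlr7 KO minus WT on the right, each in 4 contrasts of 3 against 3 libraries; filled points have an adjusted p under 0.05. The 4 myelin contrasts point the same way for every gene, with the widest spread for Pros1, Lrp1 and Gas6, and the KO contrasts of Axl, Gas6, Cd93 and Mrc1 separate by sex.

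Whether the response to myelin depended on sex or on Tlr7 was tested by differences between the contrasts. Between the sexes, 0 of the 10 genes passed in WT cultures (0.0415% of all genes did), with 0 at an unadjusted p under 0.05, and 0 passed in KO cultures (0.0553%), with 2 at an unadjusted p under 0.05; DESeq2 also called 0 in each. Between genotypes, 1 gene passed in males (2.56% of all) and 1 in females (0.919%). In males this was Pros1, whose decline was smaller in KO cultures by 0.30 (SE 0.08, edgeR adjusted p = 0.0284); it was lost in 5 of 17 alternatives, each of which left out 1 library. In females it was Gas6, whose decline was smaller in KO cultures by 0.26 (SE 0.04, edgeR adjusted p = 1.48e-04) and which passed in all 17 alternatives.

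Other markers moved with myelin too. The 10 microglia markers summed to 5542 to 6048 CPM with DMSO and to 4799 to 5133 CPM with myelin, and the 10 oligodendrocyte markers to 187 to 308 CPM with DMSO and to 527 to 890 CPM with myelin. A list of 7 blood monocyte and neutrophil markers, of which 4 were tested, summed to 2072 to 2962 CPM with DMSO and to 479 to 754 CPM with myelin. Plac8 and S100a9 were at or under the floor of 3 counts in every library. The sum alone does not tell which of the others fell. The part of these markers in the changes of the 10 genes was not tested.

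Lists of genes that work with these receptors were chosen with earlier results of these data known, and their counts stand beside the shares of all genes given above, 18% to 20.8% higher and 19.4% to 21.1% lower with myelin. Of 29 tested other receptors and bridging proteins for dying cells and debris, 10 rose and 15 fell in male WT, 10 and 13 in female WT, 7 and 12 in male KO and 6 and 14 in female KO cultures, with a median log2 change of -0.24 in male WT cultures against 0.00 over all genes. Timd4, a phosphatidylserine receptor of resident macrophages, fell by 2.50 and 2.08 on the log2 scale in male and female WT and by 0.93 and 1.68 in male and female KO cultures, from group means of 2.32 to 4.70 CPM. Cd300lf, a lipid-binding immunoreceptor, rose by 1.36, 1.34, 1.05 and 1.31 in the same order, and Havcr2, which encodes TIM-3, by 0.83, 1.04, 0.64 and 0.72.

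Of 16 tested other scavenger receptors, 6 rose and 2 fell in male WT, 6 and 4 in female WT, 5 and 3 in male KO and 5 and 5 in female KO cultures, with a median of 0.04 in male WT. Olr1, the lectin-like receptor for oxidised low-density lipoprotein, rose by 2.23, 2.30, 2.13 and 2.03 from group means of 5.48 to 8.12 CPM. Scarb2, a lysosomal membrane protein of the CD36 family, rose by 0.64, 0.68, 0.67 and 0.60, and the lysosomal glycoprotein gene Cd68 by 0.64, 0.55, 0.42 and 0.51. Scarf1 fell by 0.78, 0.71, 0.80 and 0.90, at group means under 2.70 CPM.

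Downstream of the receptors, 6 of 20 engulfment signalling genes rose and 7 fell in male WT cultures, 4 and 10 in female WT, 5 and 7 in male KO and 4 and 8 in female KO, with a median of -0.07 in male WT. The 4 that rose in female WT cultures are 20% of the list, against 19.3% of all genes. Syk, the kinase behind immunoreceptor motifs, rose by 0.52, 0.50, 0.38 and 0.40. Elmo1 and Dock2, which form exchange factors for Rac, fell by 0.39 and 0.41 in male WT cultures, and Abl1 by 0.31. Of 8 genes of TAM receptor shedding and feedback, 6 rose and 1 fell in male WT, 5 and 1 in female WT, 5 and 1 in male KO and 6 and 1 in female KO cultures, with a median of 0.28 in male WT. Socs3 and Socs1, cytokine feedback inhibitors, rose by 1.02 and 0.81 in male WT cultures, whereas Adam10, a sheddase, fell by 0.34, 0.35, 0.31 and 0.38.

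Among 14 nuclear receptors and partner factors, 2 rose and 8 fell in male WT, 2 and 9 in female WT, 3 and 9 in male KO and 3 and 7 in female KO cultures, with a median of -0.14 in male WT. Nr1h3, which encodes the oxysterol receptor LXR alpha, rose by 1.36, 1.31, 1.40 and 1.28. Maf fell by 0.80, 0.97, 0.89 and 0.76 and Klf4 by 1.22, 1.06, 0.94 and 0.87. Of 11 genes for eat-me and don't-eat-me signals, 6 rose and 3 fell in male WT, 5 and 3 in female WT, 4 and 2 in male KO and 6 and 3 in female KO cultures, with a median of 0.12 in male WT. Cd47, the signal that inhibits uptake, rose by 0.65, 0.51, 0.47 and 0.52, and Sirpa, the receptor for it on phagocytes, fell by 0.46, 0.49, 0.45 and 0.43. Calr and Cd24a rose in all 4 kinds of culture.

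Loss of Tlr7 lowered Axl in both sexes and with both treatments, and this was the largest KO difference among the 10 genes in male cultures. In males with DMSO, 3 of the 10 genes passed (20.9% of all genes), 1 of them higher in KO (11.6%) and 2 lower (9.32%). In females with DMSO, 4 passed (11.9%), 0 higher (5.42%) and 4 lower (6.48%). With myelin, 5 passed in males (20.6%), 3 higher (10.1%) and 2 lower (10.6%), and 5 in females (7.28%), 1 higher (3.8%) and 4 lower (3.48%). Libraries of the genotypes did not overlap for 3, 4, 7 and 7 of the 10 genes in the same order, against 35.2%, 26.3%, 34.5% and 22.6% of all genes. Axl and Msr1 were lower in all 4 contrasts, Gas6 was higher in 3 of 4, and Cd93 and Mrc1 fell in females. Mertk, Cd36, Scarb1 and Lrp1 passed in none with edgeR. Cd36 was higher by 0.09 in males with DMSO (edgeR adjusted p = 0.0686) and by 0.08 in males with myelin (edgeR adjusted p = 0.0852). The Cd36 difference passed in 2 of 11 alternatives with DMSO, among them the replicate block (edgeR adjusted p = 0.00706). With myelin it passed in 6 of 11, among them the replicate block (edgeR adjusted p = 0.0102) and DESeq2 (0.10, DESeq2 adjusted p = 0.0297). With Ttr and Pdgfra levels as covariates the Cd36 values turned to -0.07 and -0.08 (edgeR adjusted p = 0.661 and 0.662).

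With DMSO, the KO libraries of Axl, at 143, 152 and 158 CPM in males, were all below the WT libraries at 277, 295 and 260 CPM, a log2 fold change of -0.88 (SE 0.04, edgeR adjusted p = 1.58e-25). In females they were at 192, 199 and 195 CPM below 310, 295 and 297 CPM, a change of -0.62 (SE 0.04, edgeR adjusted p = 2.76e-19). With myelin the changes were -1.05 in males, to a mean of 93.6 CPM (SD 0.76, n = 3), and -0.67 in females, to 129 CPM (SD 5.7, n = 3). A difference between the sexes in the KO effect passed for 4 of the 10 genes with DMSO (7.53% of all) and for 4 with myelin (6.51%), Axl, Gas6, Cd93 and Mrc1 in each. For Axl it passed in DMSO (0.26, SE 0.05, edgeR adjusted p = 0.00105) and with myelin (0.38, SE 0.06, edgeR adjusted p = 6.5e-06), the decline being larger in males. In WT cultures the sexes did not differ in Axl beyond the threshold (0.12, edgeR adjusted p = 0.0702), while in KO cultures with DMSO females were higher by 0.37 (edgeR adjusted p = 3.83e-10).

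Markers of choroid plexus separated male KO cultures from all others: 8 such markers summed to 4.64 to 22.7 CPM in the 6 male KO libraries and to 129 to 227 CPM in the 6 male WT libraries, and to 44.9 to 544 CPM in female libraries. With the levels of Ttr, the main one of these, and of the precursor marker Pdgfra as covariates, the Axl change in males with DMSO was -0.88 (edgeR adjusted p = 4.41e-12) and with myelin -1.04 (edgeR adjusted p = 6.54e-13). The sex difference of the Axl change was then 0.24 in DMSO (edgeR adjusted p = 0.695) and 0.37 with myelin (edgeR adjusted p = 0.0602), both short of the threshold. These values were close to the 0.26 and 0.38 found without covariates. As choroid plexus markers separated the male genotypes themselves, a call lost with the covariates does not tell genotype from marker level.

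Axl is known as a gene that type I interferon induces, and interferon response genes are given beside it; their part in the Axl changes was not tested. Irf7, the interferon-induced transcription factor, was lower in KO in all 4 contrasts by value but passed only in females with DMSO (-1.37, edgeR adjusted p = 0.0309) and in males with myelin (-2.01, edgeR adjusted p = 4.19e-04). Of 20 interferon response genes, 8 fell in KO males and 5 in KO females with DMSO. With myelin, 20 fell in KO males and 0 in KO females, and 0 rose in each contrast. Over all genes, 9.32%, 6.48%, 10.6% and 3.48% were lower in the same order. In females with myelin, 1 of 20 was lower at an unadjusted p under 0.05 in edgeR, DESeq2 also called 0, and the median change was -0.44. DESeq2 called 15 in females with DMSO, where edgeR called 5. The Axl changes in the same order were -0.88, -0.62, -1.05 and -0.67. The KO effect on the 20 interferon response genes differed between the sexes for 0 with DMSO and 1 with myelin. Over all genes, 7.53% and 6.51% did. With myelin, 16 of the 20 differed at an unadjusted p under 0.05 in edgeR. DESeq2 also called 0 and 1. Myelin raised Irf7 in male WT (1.60), female WT (1.13) and female KO (1.93) cultures, where Axl fell by 0.52, 0.55 and 0.60. Axl fell with myelin in male KO cultures as well. Myelin raised 16 of the 20 interferon response genes in male WT, 12 in female WT, 3 in male KO and 18 in female KO. The shares of all genes raised were 20%, 19.3%, 18% and 20.8% in that order. The myelin effect on the 20 genes differed between the genotypes for 0 in males (2.56% of all genes) and 0 in females (0.919%). Between the sexes in KO cultures it differed for 0 (0.0553%). At an unadjusted p under 0.05 in edgeR there were 0, 1 and 7.

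In 1 male KO library with DMSO, replicate 3, Irf7 stood at 60.1 CPM against 14.9 and 16.9 CPM in the other 2, and Ifit3 at 19.3 CPM against 3.84 and 3.68 CPM. Axl was at 158 CPM there, against 143 and 152 CPM. The KO change of Axl in males with DMSO passed with and without this library.

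**Figure D4:**
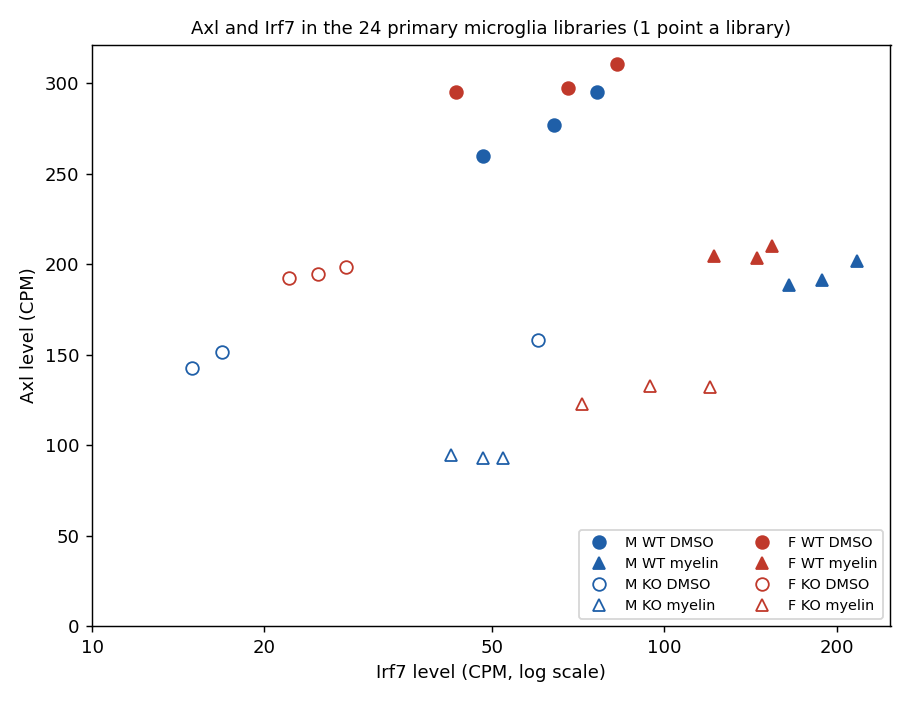
Axl level on a linear axis from 0 against Irf7 level on a log axis, both in CPM, with 1 point for each of the 24 primary microglia libraries. WT libraries with myelin have the highest Irf7, at 122 to 217 CPM, and lie at 189 to 210 CPM for Axl, below WT libraries with DMSO.

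The TAM ligands did not follow Axl. Gas6 was higher in male KO than in male WT cultures, at 565, 551 and 549 CPM against 415, 421 and 415 CPM with DMSO, a log2 fold change of 0.41 (SE 0.03, edgeR adjusted p = 2.34e-16). Every male KO library was above every male WT library. In females with DMSO the values were 426, 402 and 398 CPM in KO against 426, 433 and 428 CPM in WT, and the change of -0.07 did not pass (edgeR adjusted p = 0.148).

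With myelin Gas6 was higher in KO in both sexes, by 0.50 in males and 0.19 in females. The sex difference passed with DMSO (-0.48, SE 0.04, edgeR adjusted p = 6.16e-12) and with myelin (-0.30, SE 0.04, edgeR adjusted p = 3.34e-06), and also with Ttr and Pdgfra as covariates. Pros1 differed between genotypes in males with myelin alone, where KO libraries had 46.7, 41.5 and 41.6 CPM and WT libraries 32.6, 34.4 and 35.8 CPM, a change of 0.33 (SE 0.06, edgeR adjusted p = 3.89e-05); with the covariates it was 0.34 and did not pass (edgeR adjusted p = 0.22).

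Cd93 was the gene in which the sexes differed most. In females with DMSO it had 82.6, 89.4 and 93.3 CPM in KO and 170, 179 and 170 CPM in WT libraries, a log2 fold change of -0.97 (SE 0.04, edgeR adjusted p = 1.07e-24). In males with DMSO it had 131, 134 and 136 CPM in KO and 135, 126 and 131 CPM in WT libraries, which overlapped, with a change of 0.03 (edgeR adjusted p = 0.682). The sex difference was -1.001 (SE 0.06, edgeR adjusted p = 1.07e-17) with DMSO and -0.98 (SE 0.07, edgeR adjusted p = 1.7e-16) with myelin; it stayed past the threshold with the covariates, at -0.76 and -0.80. With myelin Cd93 fell in female KO by 0.78 and was higher in male KO by 0.20, the latter at 0.01 with the covariates (edgeR adjusted p = 0.99). WT females also exceeded WT males in DMSO by 0.41 (edgeR adjusted p = 1.3e-09), or by 0.26 with the covariates (edgeR adjusted p = 0.39).

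Mrc1 showed the same split on a smaller scale. In females with DMSO it had 328, 358 and 334 CPM in KO against 457, 465 and 475 CPM in WT libraries, a change of -0.45 (SE 0.04, edgeR adjusted p = 4.43e-12), and with myelin the change was -0.37. In males the changes were -0.07 and 0.07 and did not pass. The sex difference was -0.38 (edgeR adjusted p = 3.23e-06) with DMSO and -0.44 (edgeR adjusted p = 6.88e-07) with myelin, and fell short with the covariates, at -0.24 (edgeR adjusted p = 0.549) and -0.30 (edgeR adjusted p = 0.0812).

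Mrc1 also marks border-associated macrophages. Their 9 other markers, of which 6 were tested, summed to 999.96 to 1081 CPM in WT and 643 to 672 CPM in KO cultures with DMSO, and to 818 to 886 and 600 to 615 CPM with myelin. Most of that sum was Pf4, with group means of 456 to 956 CPM, while Cd163 and Lyve1 had group means under 1 CPM and Cd209f was at or under 3 counts in every library. The part of these cells in the Mrc1 change was not tested.

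Msr1 was lower in KO in each contrast by a small amount, with log2 changes of -0.10, -0.17, -0.13 and -0.12 in males with DMSO, females with DMSO, males with myelin and females with myelin. The male DMSO libraries overlapped, at 1383, 1482 and 1557 CPM in KO and 1578, 1649 and 1529 CPM in WT. Calls in males were lost with the covariates, and the call in females with myelin without WT replicate 2 or KO replicate 3. In KO cultures with DMSO, 5 of the 10 genes differed between the sexes (9.86% of all), the others being Gas6 (-0.44), Cd93 (-0.59), Mrc1 (-0.30) and Lrp1 (-0.35) beside Axl, while in WT cultures 2 did (3.70%), Cd93 and Cd36 (0.12). The Lrp1 call was lost in 7 of 11 alternatives and the Cd36 call in 6 of 11.

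The related genes gave KO differences of both directions, beside 20.9%, 11.9%, 20.6% and 7.28% of all genes called in males with DMSO, females with DMSO, males with myelin and females with myelin. Of the 29 other receptors and bridging proteins, 13 were higher and 7 lower in males with DMSO, 9 and 5 in females with DMSO, 13 and 4 in males with myelin and 9 and 3 in females with myelin. Itgb3, a subunit of an integrin that binds bridged apoptotic cells, was higher by 1.33, 0.84, 1.42 and 0.66, and Havcr2 by 0.72, 0.59, 0.53 and 0.26. Of the 16 other scavenger receptors, 5 were higher and 3 lower, 5 and 0, 4 and 6, and 3 and 2 in the same order. Marco, a class A receptor like that of Msr1, was higher by 0.51, 0.58, 0.61 and 0.37, and Colec12 by 0.49, 0.12, 0.38 and 0.16, whereas Msr1 was lower.

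The feedback gene Socs1 was lower in KO by 0.63, 0.39, 0.75 and 0.27 in the same order. The 8 genes of that list counted 1 higher and 4 lower, 1 and 3, 2 and 6, and 0 and 2. Maf was lower by 0.28, 0.52, 0.37 and 0.32, in a list of 14 factors with 1 higher and 3 lower, 1 and 2, 3 and 2, and 0 and 3. Engulfment signalling counted 6 higher and 2 lower of 20, then 1 and 1, 5 and 0, and 1 and 0, so that in females 2 of 20 with DMSO and 1 of 20 with myelin were below the 11.9% and 7.28% of all genes.

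Over the 8 group means, the genes nearest to Axl in their pattern of log2 levels were Gpr141, with a root mean square distance of 0.13 over 8 groups, and Cck, with 0.18, against a span of 1.68 for Axl itself. Pros1, with a span of 1.04, was nearest to Man2a2 (0.047) and Rtn4rl1 (0.052), and Cd93, with a span of 1.40, to Epop (0.19) among the genes reported. These came from 10071 candidate genes, and the 7 other genes had spans under 1.

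In hippocampus the order of the 10 transcripts was different. Over the 28 libraries of the agonist experiment the median was 385 CPM for Lrp1, 109 for Gas6, 97.4 for Axl, 58.3 for Mertk, 23.2 for Scarb1, 17.3 for Pros1, 4.95 for Cd93, 4.08 for Mrc1, 1.25 for Cd36 and 0.246 for Msr1. Lrp1 was the most abundant of the 10 here as in cultures with DMSO, whereas Cd36 and Msr1, which were next to Lrp1 in those cultures, were the least abundant in tissue, with 1 to 14 counts per library for Msr1. In the inhibitor table Msr1 had 0 to 8 counts; the library with 0 allows a level of up to 0.194 CPM (3 counts, counting error only).

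Gardiquimod changed none of the 9 tested genes beyond the threshold: edgeR called 0 of 9 in males (0.221% of all genes), 0 in females (0.0232%) and 0 for the difference between the sexes (0.00581%). At an unadjusted p under 0.05 there were 2, 1 and 2, and DESeq2 also called 0 in each, with 1 gene without an adjusted p in males and in the sex difference. Irf7 rose in both sexes in the same libraries, by 1.67 in males and 1.60 in females.

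Axl ranged from 86.4 through a median of 94.996 to 108 CPM in the 7 saline males and from 84.5 through 108 to 124 CPM in the 7 gardiquimod males. In females it ranged from 90.1 through 102 to 106 CPM with saline and from 68.6 through 83.6 to 100.3 CPM with gardiquimod. All groups overlapped, with log2 changes of 0.15 (SE 0.08, edgeR adjusted p = 0.363) and -0.20 (SE 0.08, edgeR adjusted p = 0.791). Mertk had changes of 0.26 (SE 0.11, edgeR adjusted p = 0.236) and -0.19 (SE 0.10, edgeR adjusted p = 0.799). The sexes differed in age here, so sex and age cannot be told apart.

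The inhibitor changed none of the 9 genes beyond the threshold in males (0.105% of all genes) or females (0.0876%), and the sex difference gave 0 calls as well (2.41%). At an unadjusted p under 0.05 there were 3, 2 and 5, and DESeq2 called 0, 0 and 2. In males Axl had 78.2, 83.4 and 41.2 CPM in controls and ranged from 91.5 through 108 to 127 CPM in the 6 treated mice, with no overlap and a log2 change of 0.68 (SE 0.30, edgeR adjusted p = 0.262). Mertk had 41.3, 44.3 and 20.1 CPM in controls and ranged from 44.5 through 56.5 to 64.1 CPM in treated males, a change of 0.64 (SE 0.28, edgeR adjusted p = 0.255). In all, 4 of the 9 genes had no overlap in males (Axl, Mertk, Pros1 and Cd36), against 10.7% of all genes, and 2 in females (Gas6 and Lrp1), against 6.19%.

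In females Axl went the other way by value, with 67.5, 108 and 114 CPM in controls and 41.9, 30.4, 100.5, 68.4 and 83.5 CPM in treated mice, a change of -0.58 (SE 0.30, edgeR adjusted p = 0.472). Gas6 had 84.2, 109 and 79.8 CPM in female controls and 133, 114, 112, 130 and 126 CPM in treated females, all above, with a change of 0.43 (SE 0.14, edgeR adjusted p = 0.247). The sex difference was -1.25 for Axl (SE 0.42, edgeR adjusted p = 0.0915; DESeq2 adjusted p = 0.0435) and 0.58 for Gas6 (SE 0.19, edgeR adjusted p = 0.0818; DESeq2 adjusted p = 0.0282). Without the 2 male inhibitor libraries that held Xist, the Axl change was 0.67 (edgeR adjusted p = 0.395) and the Mertk change 0.64 (edgeR adjusted p = 0.384) in males, and the sex difference was -1.24 for Axl (edgeR adjusted p = 0.151) and 0.48 for Gas6 (edgeR adjusted p = 0.139). Control and treated libraries differed in age as well: 1 of the 6 treated males was 6.06 months old and the other males 5.50, and both female groups reached 6.85 months.

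The libraries lowest in Axl and Mertk were also the lowest in astrocyte markers. Male control replicate 3, with 41.2 CPM of Axl, had an astrocyte sum of 3848 CPM against 8104 and 8365 CPM in the other male controls. Female inhibitor replicates 1 and 2, with 41.9 and 30.4 CPM of Axl, had 4827 and 2869 CPM. In the 6 treated males the sum was 9525 to 13241 CPM. Male control replicate 3 and female inhibitor replicates 1 and 2 also had the lowest mitochondrial shares of that experiment, 3.31%, 4.62% and 3.49%. Microglia markers went down to 300 CPM in male controls and 260 CPM in treated females, but stayed at 442 CPM or more in the other groups. Neuron markers reached 6102 and 7167 CPM in the same order, against 5500 CPM in female controls and 4274 CPM in treated males. The part of these differences in Axl and Mertk was not tested. Without male control replicate 3 and female inhibitor replicate 2, a choice made after seeing the data, the Axl changes were 0.42 (edgeR adjusted p = 0.718) in males and -0.39 (edgeR adjusted p = 0.616) in females, and the Gas6 change in females was 0.46 (edgeR adjusted p = 0.292). The sex difference of Axl was then -0.81 (edgeR adjusted p = 0.296).

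**Figure D5:**
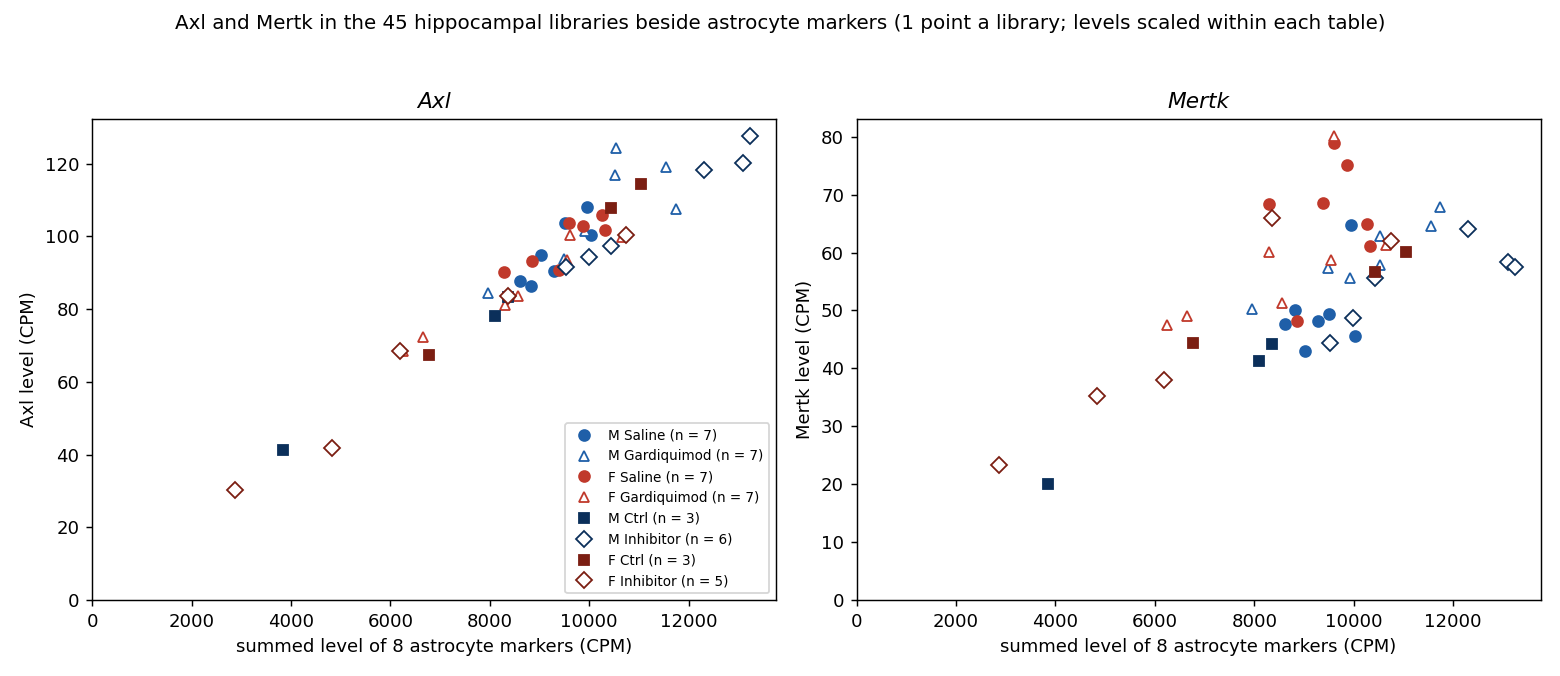
Axl and Mertk levels against the summed level of 8 astrocyte markers, all in CPM on linear axes from 0, with 1 point for each of the 45 hippocampal libraries; levels were scaled within each of the 2 tables. The libraries with the lowest astrocyte sums, at 2869, 3848 and 4827 CPM, also have the lowest Axl, at 30.4, 41.2 and 41.9 CPM.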

How the data were processed

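The deposited tables hold whole-number counts per gene that the authors made from 3′ end libraries (QuantSeq FWD, per the labels' protocols). GRCm38, mm10 and DESeq2 1.38.3 are named in the submitters' processing notes; no aligner, counter, annotation or strand setting is given there. Each of the 3 tables was fitted alone in edgeR 4.0.16 (R 4.3.3, limma 3.58.1): low counts removed by filterByExpr, TMM scaling, 1 mean per group and quasi-likelihood tests, adjusted by Benjamini-Hochberg over all genes and called under 0.05. DESeq2 1.42.0 was an alternative. CPM are TMM-scaled. Interactions were tested as differences between contrasts. The script was tested on simulated data.

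The genes and lists were chosen with earlier results of these data known. From each list, the text names the genes called in all 4 myelin or all 4 KO contrasts with the largest mean change; the nearest genes were taken for members spanning over 1 (log2), among genes with a mean of at least 4 CPM. Some genes that these rules name are not reported here.

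Microglia replicate numbers come from the labels. Same-numbered libraries deviated together for myelin in female KO cultures, with every correlation over 0.1, up to 0.477. There, DMSO replicate 3 went more with myelin replicate 2 (0.302) than with its own number (0.150). For KO against WT in females, 2 of 3 same-numbered correlations were over 0.1 with myelin and 1 of 3 with DMSO. The main tests did not pair libraries, and the replicate block was an alternative. Lists of the genes that overlap the 10 came from GENCODE M21.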

Additional observations from a re-analysis of the deposited data

Results flagged for a closer look

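The KO effect differed between the sexes, females minus males, for 4 genes in both treatments. The differences in log2 change were 0.26 with DMSO and 0.38 with myelin for Axl, -0.48 and -0.30 for Gas6, -1.001 and -0.98 for Cd93, and -0.38 and -0.44 for Mrc1. The myelin effect differed between genotypes, KO minus WT, by 0.30 for Pros1 in males and by 0.26 for Gas6 in females. These 10 came from 78 differences of effects looked at.

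In hippocampus, Dixon's 95% limit was applied to 54 sets, each 1 gene in 1 group of 5 to 7 libraries. In 6 of the 54, a library lay farther from the others than the limit allows. Chance alone gives about 1 in 20 sets, but the sets of different genes share libraries and are not independent. Mertk was at 64.7 CPM in saline male replicate 5 (the next at 50.2) and at 80.1 CPM in gardiquimod female replicate 7 (the next at 61.2). Cd36 was at 2.03 CPM in gardiquimod male replicate 4, and Scarb1 at 25.3 CPM in gardiquimod female replicate 1. Mrc1 was at 7.80 CPM in saline female replicate 4 (the next at 4.33), and Lrp1 was low in saline female replicate 6, at 306 CPM (the next at 371).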

How the results depend on the processing

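The number of the 10 genes called was recomputed with DESeq2's size factors, DESeq2, no low-count filter, a replicate block, covariates and without each library. With Ttr and Pdgfra as covariates it went from 5 to 2 for KO in males with myelin, from 4 to 2 for the sex difference of KO in each treatment, and from 2 to 0 for sex in WT cultures. For genotype by myelin in males it went from 1 to 2 with no filter. Without 1 library the counts ranged from 0 to 1 there (0 without WT DMSO, WT myelin or KO myelin replicate 1), from 1 to 2 for sex in WT cultures (1 without male replicates 1 or 3 or female replicates 2 or 3), and from 0 to 2 for sex by inhibitor (1 without female control replicate 1, 2 without female inhibitor replicate 3); DESeq2 gave 2 for the last. Under the replicate block the count was 10 of 10 for myelin in female KO cultures as without it, 4 for KO in males with DMSO, 6 in males with myelin, 5 for the sex difference of KO with DMSO and 3 for sex in WT cultures with DMSO, and no call was lost. Leaving out 1 library also gave 2 to 4 for KO in males with DMSO, where the main count was 3. It gave 8 to 10 for myelin in female KO and 8 to 9 in female WT cultures. KO counts ranged from 4 to 5 in females with either treatment and from 5 to 6 in males with myelin. The sex difference of KO in each treatment, and sex in KO cultures, ranged from 4 to 5. The remaining counts did not change when 1 library was left out. DESeq2 gave 6 for KO in males with myelin, where edgeR gave 5. Single calls lost with the covariates or with no filter are given above by gene. In hippocampus no paired analysis was possible because the numbers follow accession order. Of 71 called values of single genes, 55 stayed called in every alternative and none changed sign; 168 of 3557 values changed sign while called in neither fit. At 14.3 M counts or more per library, depth limits Msr1 and Cd36 in hippocampus.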
